A study of Homo sapiens with 2 samples.

Results

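The genes described here are the RUNX transcription factors with their partner subunit, and a set of genes that mark osteoblasts, the cells that lay down bone. They were taken by symbol from a list of 9: RUNX1, RUNX2, RUNX3, CBFB, SP7, ALPL, SPP1, BGLAP and SPARC. The table held 8 of these among 18141 distinct symbols, and SP7 was not listed. Polyadenylated RNA was sequenced from U2OS, an established human osteosarcoma cell line whose labelled tissue is bone. All cells grew asynchronously and received 0.3 µM aphidicolin, an inhibitor of replicative DNA polymerases, for 18 h. The 2 libraries are replicates 1 and 2 of this single group, and no untreated library was analysed here. The values below are therefore levels under aphidicolin, and none is a response to it.

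RUNX proteins bind DNA through a conserved Runt domain. CBFB encodes the non-DNA-binding partner that stabilizes them on their sites. RUNX2 is required for osteoblast formation, and SP7 (osterix) acts downstream of it. ALPL, SPP1, BGLAP and SPARC encode an alkaline phosphatase, osteopontin, osteocalcin and osteonectin, which are products of bone-forming cells. RUNX1 is best known from blood formation, and RUNX3 from T cells and sensory neurons.

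Several of these genes carry the hexamer that RUNX proteins recognize close to an annotated start. RefSeq windows (GRCh38.p14, 250 bases before to 50 bases after a start) were found for 7 members, in 11 windows, because some genes have several starts. CBFB and SP7 had no window. The letters searched were TGTGGT and TGCGGT on both strands, which cannot overlap in full, and ACCACA and ACCGCA are their reverse complements. TGTGGT was present in 4 of the 11 windows, and in 13.1% of all 35116 windows of that length. Either hexamer was present in 6 of the 11 windows and in 19.6% of all windows. Those 6 windows belong to 6 of the 7 members. That is a count per gene, and members with several windows had more room for a match. No share over all genes was computed, so the 19.6% is to be set beside the windows only. The RUNX2 window at its more upstream start held TGTGGT 4 times, and only 4 of all windows, this one included, held it at least that often. The stretches that hold the matches are shown 5′ to 3′ on the strand of the gene, with every matched hexamer in capitals.
RUNX2, plus strand, chr6:45328127-45328156: aggaaaggccttACCACAagccttttgtga
RUNX2, plus strand, chr6:45328231-45328260: gtgaggtcacaaACCACAtgattctgcctc
RUNX2, plus strand, chr6:45328338-45328367: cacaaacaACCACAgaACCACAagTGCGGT
RUNX3, minus strand, chr1:24965120-24965149: gtccctcaACCACAgaACCACAaggccagg
SPP1, plus strand, chr4:87975560-87975589: ttttttgttttaACCACAaaaccagagggg
BGLAP, plus strand, chr1:156242009-156242038: ccgcagctcccaACCACAatatcctttggg
SPARC, minus strand, chr5:151687087-151687116: tcaggacagcccACCGCAaaaagaggagga
ALPL, plus strand, chr1:21508825-21508854: tctgcttcttctTGCGGTagccagggaggc

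The RUNX2 and RUNX3 windows shared a run of 18 bases, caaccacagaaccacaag, which places 2 copies of the hexamer side by side. It was the longest run that windows of any 2 members had in common. No other window of the 35116 held it. Counted with the start as position 1, the run began at position 15 in RUNX2, and in RUNX3 at position -133, before the start. The same genes have a second window each, at a more downstream start, and neither of those held either hexamer. Those downstream windows had a GC content of 76% in both genes, against 42.7% in the upstream window of RUNX2 and 66.3% in that of RUNX3. The RUNX1 window, with 72% GC, held no match. The starts used here are those of RefSeq. In GENCODE the spans of RUNX2, BGLAP and SPARC begin further upstream. The BGLAP and SPARC matches, and all but the first RUNX2 stretch, lie inside those spans. These matches describe letters in the reference, and binding was not measured.

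All 4 genes of the RUNX system were expressed, and the partner CBFB was the highest of them. Levels are in RPKM, read counts divided by the exonic length of the gene and by the depth of the library. A gene was counted as expressed at 1 RPKM or more in both libraries, which 66.7% of the 17912 entries of the table reached. CBFB (chromosome 16, 67029116 to 67101058) stood at 23.5 and 20.5 RPKM in replicates 1 and 2, or 22.0 ± 2.1 (mean ± SD, n = 2, as for all values given with ±). RUNX1 (chromosome 21, 34787801 to 36004667, minus strand) stood at 9.96 and 9.86 RPKM, or 9.91 ± 0.066. RUNX2 (chromosome 6, 45328157 to 45664349, plus strand) stood at 8.67 and 8.42 RPKM, or 8.55 ± 0.18. RUNX3, on chromosome 1 from 24899511 to 24965121, stood at 3.79 and 3.77 RPKM, or 3.78 ± 0.017. The bone factor RUNX2 was thus not the highest RUNX gene of this bone tumour line, and its 2 values lay below both values of RUNX1. Within each library RUNX1 exceeded RUNX2 by a ratio of 1.15 and 1.17, and RUNX2 exceeded RUNX3 by 2.29 and 2.23. The 2-library ranges of neighbours in this order did not overlap.

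**Figure D1:**
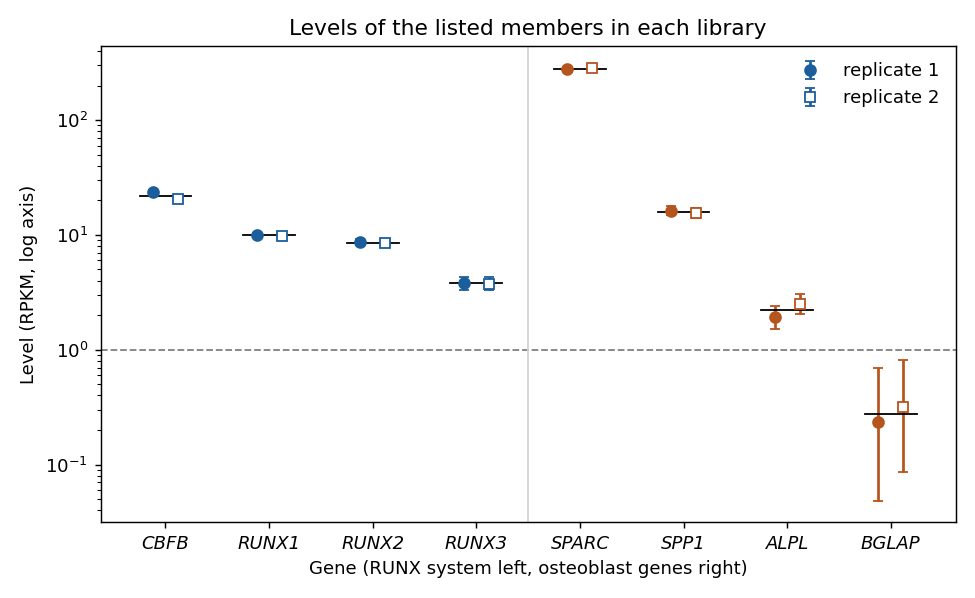
Level of each listed gene in RPKM on a log axis, with replicate 1 as filled circles, replicate 2 as open squares and the mean as a black line. Bars are 95% exact Poisson intervals of the recovered reads, and the dashed line is 1 RPKM. CBFB leads the RUNX system at 22.0 RPKM, and the osteoblast genes run from SPARC at 279.9 to BGLAP at 0.277 RPKM.

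The 3 RUNX genes summed to 22.4 RPKM in replicate 1 and 22.1 RPKM in replicate 2, close to the level of CBFB. This sum was formed after the values were seen. CBFB was 1.05 times the sum in replicate 1 and 0.931 times in replicate 2, so the libraries lay on opposite sides of equality. RUNX1 made up 44.6% ± 0.23 of the sum, RUNX2 38.4% ± 0.36 and RUNX3 17.0% ± 0.12. The closeness to CBFB and these shares hold for RNA per exonic length only. The closeness also rests on the length taken for CBFB, which is 4652 bases behind its RPKM. Over the 4129 bases of its GENCODE exons CBFB stood at 26.5 and 23.1, above the sum in both libraries. The RUNX values are the same on that scale. Divided by the longest GENCODE transcript instead, RUNX1 stood at 21.2, RUNX2 at 11.9 and RUNX3 at 3.94, against 32.6 for CBFB. Protein was not measured.

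The size of the gap between RUNX1 and RUNX2 depended on the length used, and CBFB stood above RUNX1 only once reads were divided by length. Reads recovered from the RPKM numbered 2051 and 2000 for RUNX1, more than the 1445 and 1243 of CBFB, the 940 and 898 of RUNX2 and the 227 and 222 of RUNX3. The length behind the RUNX1 value is 15574 bases, equal to the union of its GENCODE exons, whereas its longest GENCODE transcript has 7274 bases. For RUNX2 the length was 8192 bases and the longest transcript 5877. Divided by the longest transcript, RUNX1 stood at 21.2, RUNX2 at 11.9, RUNX3 at 3.94 and CBFB at 32.6 on the same scale. RUNX1 was then 1.78 times RUNX2, in place of 1.16 times, and the order of the 4 genes was unchanged. Which transcripts of these genes were present was not measured.

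Annotated transcripts overlap the spans of all 3 RUNX genes. The row of RUNX1 held the same 2 values as the row of a second symbol, LOC100506403. The length behind these values, 15574 bases, is that of the RUNX1 exons. Whether any of the reads come from LOC100506403 was not tested. SUPT3H, a gene for a chromatin complex subunit that runs opposite to RUNX2 and overlaps its span without sharing exonic bases, had 2 and 3 reads (0.0291 and 0.0443 RPKM). The GENCODE genes that overlap the span of RUNX1, AF015262.1 and MIR802 among them, were not listed and share no exonic bases with it. The same holds for RUNX2-AS1 and AL096865.1 at RUNX2, and for MIR6731 and AL445471.1 at RUNX3. No GENCODE gene overlapped the span of CBFB, ALPL or SPP1.

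The osteoblast genes were spread far more widely than the RUNX genes, from one of the most abundant RNAs of the cells to a few reads. SPARC, which encodes the collagen-binding matrix protein osteonectin, stood at 277.3 and 282.5 RPKM, or 279.9 ± 3.7, and ranked 39th of all entries. It lies on chromosome 5 from 151661096 to 151687165 and had 17026 and 17072 reads. SPP1 (chromosome 4, 87975650 to 87983426), for the secreted phosphoprotein osteopontin, stood at 16.3 and 15.5 RPKM, or 15.9 ± 0.52. SPARC exceeded SPP1 by 17.1 times in replicate 1 and 18.2 times in replicate 2. SPARC alone made up 93.8% ± 0.087 of the summed RPKM of the 4 listed osteoblast genes.

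ALPL, for the tissue-nonspecific alkaline phosphatase that frees phosphate for mineral, was low. It lies on chromosome 1 from 21509372 to 21578412 and stood at 1.93 RPKM in replicate 1 and 2.53 in replicate 2, or 2.23 ± 0.42. Its 76 and 98 reads gave 95% exact Poisson intervals of 1.52 to 2.41 and 2.05 to 3.08 RPKM, which overlap. BGLAP, for the mature osteoblast product osteocalcin, was the only listed member below 1 RPKM. It lies on chromosome 1 from 156241962 to 156243321 and had 3 and 4 reads, or 0.235 and 0.319 RPKM. The intervals were 0.0485 to 0.688 RPKM in replicate 1 and 0.0868 to 0.816 in replicate 2, so their upper bounds lay below 1 RPKM in both libraries. Against a level of 1 TPM (RPKM rescaled to the same sum in both libraries) BGLAP did pass, at 1.10 and 1.49 TPM. That is a lower level, which 81.6% of all entries reached, beside 66.7% at 1 RPKM. All Poisson intervals given here cover counting error only.

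The BGLAP value carries a limit of annotation. The read-through gene PMF1-BGLAP shares 398 exonic bases with BGLAP, 33.4% of the BGLAP exons, and it was not listed. How reads in shared exons were counted is not given in the sources used here. An antisense gene, CLMAT3, shares 381 bases (7.89%) of the SPARC exons and had 1 and 3 reads, and PAQR6 shares 1 base with BGLAP and stood at 7.91 ± 0.88 RPKM. SP7 has no value: the table held no 0, and 359 symbols had 1 read in each library, so a level cannot be given for a gene outside it.

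**Figure D2:**
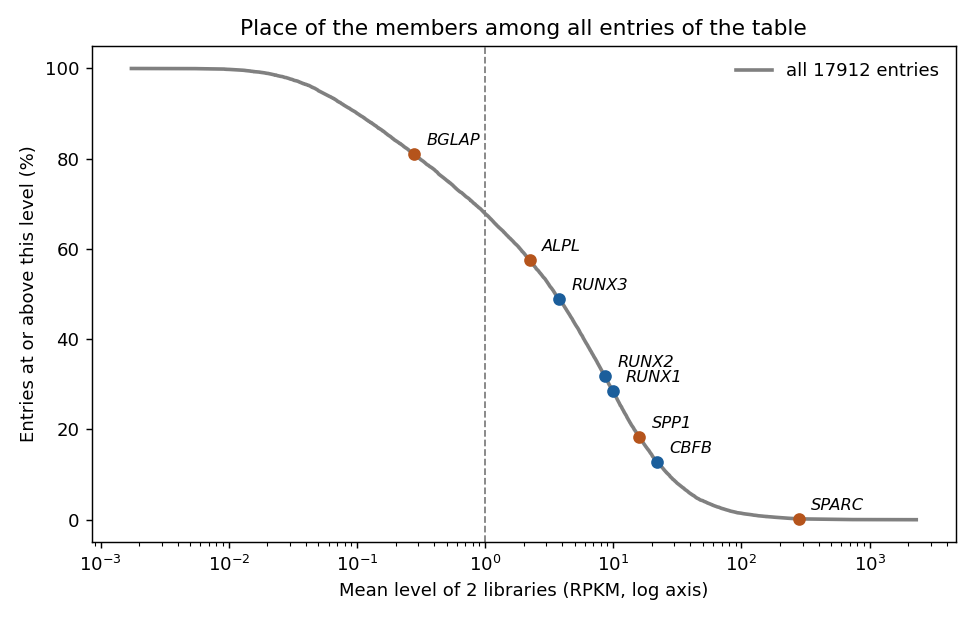
Percent of the table's 17912 entries at or above a given mean RPKM (grey line, log axis), with the RUNX system in blue and the osteoblast genes in orange. SPARC sits at 0.218%, CBFB at 12.8%, SPP1 at 18.4%, RUNX1 at 28.6%, RUNX2 at 31.9%, RUNX3 at 48.8%, ALPL at 57.5% and BGLAP at 81.1%.

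Of the 9 members 8 were listed, and 7 of these reached 1 RPKM in both libraries, beside 66.7% of all entries. The median of all entries was 3.53 RPKM. RUNX3 was just above that median, with 48.8% of entries at or above it. RUNX1 and RUNX2 had 28.6% and 31.9% of entries at or above them, CBFB 12.8% and SPP1 18.4%. ALPL and BGLAP lay below the median, with 57.5% and 81.1% at or above them. By reads over the library total alone, not divided by length, RUNX1 moved to 8.21% and SPP1 to 36.5%.

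The libraries gave close values for most members. The recovered reads of each entry were compared by an exact binomial test (2-sided, Benjamini-Hochberg over all entries). It called 0 members and 0.977% of entries (175). At an unadjusted p under 0.05, 2 of the 8 listed members differed, CBFB and SPARC, and 1653 of the 17912 entries. CBFB had the lowest adjusted p of the members, 0.0695 in the exact binomial test, and its log2 ratio (replicate 2 over 1) was -0.19 ± 0.056 (SE from counting). Its intervals, 22.3 to 24.7 RPKM in replicate 1 and 19.4 to 21.7 RPKM in replicate 2, did not overlap. When only entries at 1 RPKM or more were tested its adjusted p was 0.0493, and with library totals as the scale it was 0.0513. ALPL differed more, with a log2 ratio of 0.40 ± 0.22 and an adjusted p of 0.629 in the exact binomial test, on far fewer reads. SPARC had a log2 ratio of 0.03 ± 0.016, and RUNX1, RUNX2, RUNX3 and SPP1 lay between -0.06 for SPP1 and -0.0016 for RUNX3. For BGLAP the log2 ratio was 0.45 ± 1.1, which its reads leave without a direction. The test sets 1 library against 1 with counting error only, and compares no conditions.

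**Figure D3:**
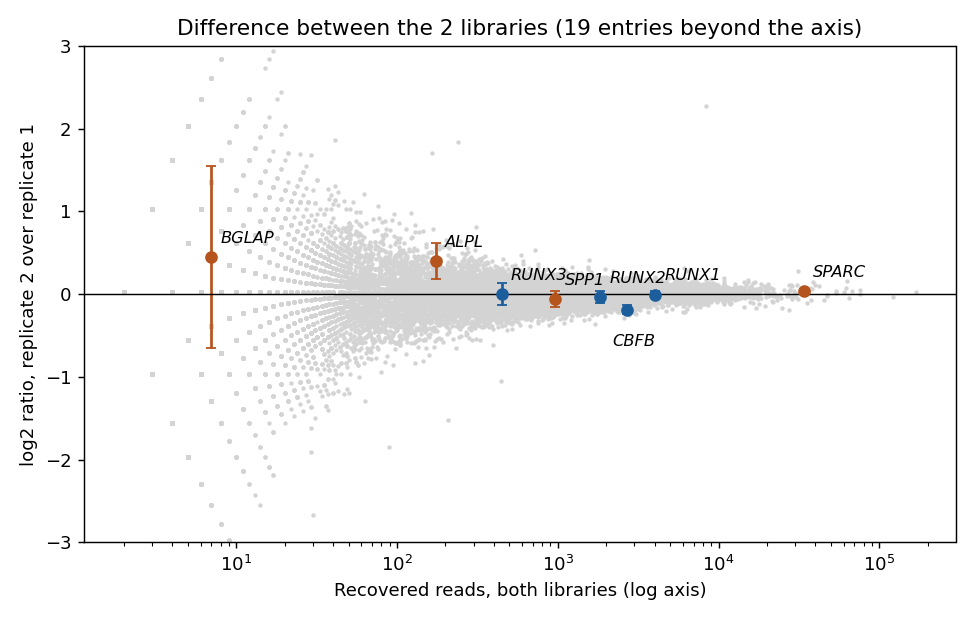
Log2 ratio of replicate 2 over replicate 1 against the recovered reads of both libraries (log axis), with all entries in grey, the RUNX system in blue and the osteoblast genes in orange. Bars are counting standard errors, and 19 entries lie beyond the axis. BGLAP, on 7 reads, has the widest bar, and CBFB lies at -0.19.

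RNAs for proteins that act with RUNX factors were mostly present. Of 23 corepressors, coactivators and chromatin enzymes known to join RUNX complexes, 20 reached 1 RPKM (87.0%, beside 66.7% of all entries), and the median was 8.93 RPKM. The arginine methyltransferase gene PRMT1 led at 44.1 ± 1.02 RPKM, followed by TLE5 of the Groucho family at 42.4 ± 0.32 and the deacetylase gene HDAC1 at 38.0 ± 1.3. All 10 genes of RUNX protein turnover reached the level, with a median of 12.1 RPKM. They were led by CDC20, an activator of the anaphase-promoting complex, at 98.1 ± 1.7, the F-box gene SKP2 at 34.4 ± 0.53 and the ligase gene SMURF2 at 19.4 ± 0.59. Most of these genes act in every dividing cell and on many other proteins.

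Of 24 other transcription factors of osteoblast differentiation, 21 were listed and 18 reached 1 RPKM. That is 85.7% of those listed, beside 66.7% of all entries, and the median of those listed was 3.99 RPKM. ATF4, which drives amino acid supply for matrix synthesis, led at 123.4 ± 0.93 RPKM. The AP-1 genes FOSL2 and FOSL1 followed at 52.1 ± 0.0037 and 32.4 ± 1.08. The homeobox gene DLX3 stood below the level at 0.362 and 0.481 RPKM, as did FOXC2 at 0.0526 and TCF7 at 0.0378. DLX5 and DLX6, homeobox genes that act in early osteoblasts, and TWIST1, whose protein restrains RUNX2, were not listed.

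The other matrix genes ranged from 209.0 RPKM to near 0. Of 18 other matrix genes of osteoblasts, 13 were listed and 10 reached 1 RPKM (76.9% of those listed, beside 66.7% of all entries). The median of those listed was 22.4 RPKM. COL1A1, for one chain of type I collagen, led at 209.0 ± 0.88 RPKM, so SPARC was 1.33 and 1.35 times as high in the 2 libraries. Fibronectin (FN1) stood at 139.1 ± 10.6 RPKM and was higher in replicate 2 by a log2 ratio of 0.16 ± 0.012, on 29965 and 32858 reads. The exact binomial test called it (adjusted p = 5.8e-42), a test that covers counting error only. The collagen chaperone gene SERPINH1 stood at 50.9 ± 2.1. COL1A2, for the other type I chain, was at 0.0203 and 0.0826 RPKM, DCN (decorin) at 0.0153 ± 0.013 and OGN at 0.0661 ± 0.039. The biglycan gene BGN, at 3.18 and 2.84 RPKM, lay near the median of all entries. IBSP (bone sialoprotein), POSTN, OMD, ASPN and FMOD were not listed. Of the defining osteoblast genes, SPARC, COL1A1, SPP1, RUNX2 and ALPL were thus expressed, BGLAP and COL1A2 were below the level, and SP7 and IBSP were not listed.

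Relatives of SPARC were lower than SPARC itself. Of 7 such genes 4 reached 1 RPKM (57.1%, beside 66.7% of all entries), with a median of 1.78 RPKM. FSTL1 stood at 57.0 ± 0.55, SPOCK1 at 14.4 ± 0.27 and SMOC1 at 2.90 ± 0.11, and SPARCL1, the closest relative of SPARC, at 0.186 ± 0.075.

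Of 13 other genes of mineral formation 11 were listed and 8 reached 1 RPKM, a share near the 66.7% of all entries, with a median of 7.74 RPKM. The phosphate transporter gene SLC20A1 led at 81.2 ± 2.9 RPKM, followed by the secretory kinase gene FAM20C at 9.72 ± 0.64 and VKORC1 of the vitamin K cycle at 9.36 ± 0.0063. ENPP1, which makes the pyrophosphate that ALPL breaks down, stood at 8.28 ± 0.14, above both values of ALPL. Among the other alkaline phosphatases, ALPP stood at 0.451 ± 0.033, and ALPG and ALPI were not listed. SMPD3 was also below the level at 0.355 ± 0.027, and MGP at 0.969 in replicate 1.

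Receptors for osteopontin, the SPP1 product, ranged from 0.535 to 208.3 RPKM. Of 8 genes 7 reached 1 RPKM (87.5%, beside 66.7% of all entries), with a median of 26.5 RPKM. The integrin gene ITGB1 stood at 208.3 ± 3.7 RPKM, ITGB5 at 71.8 ± 0.63 and ITGAV at 46.8 ± 0.65. ITGA4 stood at 2.03 ± 0.013 and ITGB3 at 1.64 ± 0.24, both below the median of all entries, and ITGA9 was below the level at 0.535 ± 0.045. Of 14 receptors, junction proteins and signals of osteoblasts, 13 were listed and 12 reached the level (92.3% of those listed). The median of those listed was 6.03 RPKM, and the WNT coreceptor gene LRP6 led at 18.4 ± 0.076. TNFRSF11B (osteoprotegerin) stood at 16.1 ± 1.8 and GJA1 (connexin 43) at 15.3 ± 0.34. TNFSF11, the osteoclast-forming signal that osteoprotegerin blocks, was not listed.

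**Figure D4:**
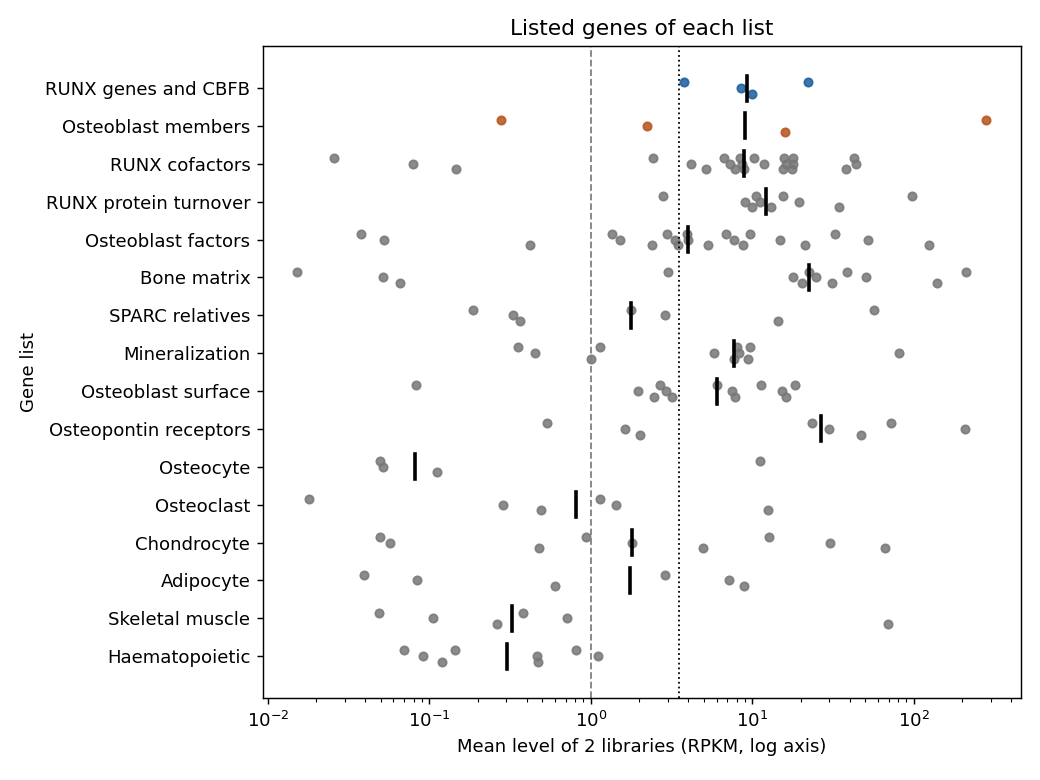
Mean RPKM of every listed gene (points, log axis) in each gene list, with the list median as a black bar, 1 RPKM as the dashed line and the median of all entries, 3.53 RPKM, as the dotted line. The 4 genes of the RUNX system lie between 3.78 and 22.0 RPKM. The 8 listed haematopoietic markers lie between 0.0695 and 1.11 RPKM.

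Markers of neighbouring lineages were mixed. Of those listed, 25% of osteocyte, 50% of osteoclast and 55.6% of chondrocyte markers reached 1 RPKM, each below the 66.7% of all entries. Of 7 osteocyte markers 4 were listed and 1 reached 1 RPKM, PDPN at 11.1 ± 0.37, whereas SOST stood at 0.0497, DKK1 at 0.0516 and PHEX at 0.111, and DMP1, MEPE and FGF23 were not listed. Of 9 osteoclast markers 6 were listed and 3 reached the level: MMP9 at 12.6 ± 0.16, CTSK at 1.44 ± 0.19 and OSCAR at 1.13 ± 0.091. ACP5 stood at 0.288 and CALCR at 0.0180. Among 11 chondrocyte markers 9 were listed and 5 reached it, with a median of 1.80 RPKM. HAPLN1, a cartilage link protein gene, stood at 66.2 ± 4.04 RPKM, the cartilage factor gene SOX9 at 30.4 ± 2.8 and COL11A1 at 12.6 ± 0.33. Both HAPLN1 and SOX9 were above every RUNX gene, while the defining cartilage collagen gene COL2A1 stood at 0.0575 and COL10A1 at 0.0497. HAPLN1 had a log2 ratio of -0.12 ± 0.028 between the libraries and was called by the exact binomial test (adjusted p = 0.0052), again against counting error only.

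Of 9 adipocyte markers 6 were listed and 3 reached the level (50% of those listed, beside 66.7% of all entries). They were PPARG at 8.89 ± 0.088, LPL at 7.20 ± 0.30 and CFD at 2.89 ± 0.77. PPARG, the master factor of fat cells, was thus at 8.83 and 8.96 RPKM, next to RUNX2 at 8.67 and 8.42. FABP4 stood at 0.0837, and ADIPOQ, PLIN1 and LEP were not listed. Of 9 skeletal muscle markers 6 were listed and 1 reached the level (16.7% of those listed), TNNT1 at 68.9 ± 1.9. MYH3 stood at 0.712 and ACTA1 at 0.383. MYOD1 stood at 0.105, and MYOG, MYF5 and MYF6 were not listed.

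Haematopoietic markers were low beside RUNX1 and RUNX3, which act in those lineages. Of 13 markers 8 were listed and 1 reached 1 RPKM (12.5% of those listed, beside 66.7% of all entries). It was CD3D at 1.11 ± 0.046, with CD4 at 0.811 and CSF1R at 0.474. PTPRC, the common leukocyte antigen gene, stood at 0.145 and SPI1 at 0.0919. Their summed level was 3.25 RPKM in replicate 1 and 3.31 in replicate 2, below RUNX1 and RUNX3 alone, and CD3E, GATA1, MPO and HBB were among those not listed.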

How the data were processed

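The authors deposited RPKM, as the column names say, per the file headers, and each library has 1 column. Trim Galore, HISAT2 and featureCounts and the builds hg38 and GRCh38.p13 are named per the submitters' processing notes. For tool versions, gene models, strand setting and filters nothing is given in the sources used here. The labels do not say whether the libraries came from separate cultures, so their spread may be technical.

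The 58 symbols with several rows were left out. Of 18083 others, values shared by several symbols were counted once, which left 17912 entries. Whole reads were recovered from the ratio of the columns (relative tolerance 2e-13), which gave totals of 13227805 and 13020149 reads. A gene's reads are known up to a whole factor, set from its GENCODE release 29 length. Libraries were compared with an exact binomial test and trimmed mean of M values scaling, and the procedure was tested on simulated data. Coordinates are GENCODE's on GRCh38, 1-based. Protein sequences were not used here.

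The members and lists were chosen with earlier results of these data known. All members were named, with the 3 highest of each list, further genes of the matrix, factor, mineral and marker lists, and overlapping genes. BGN, ENPP1, ITGA4, ITGA9, ITGB3, SPARCL1 and TNFSF11 were added after their values were seen. Some genes of the lists are not reported here by name. Python 3.11.15, numpy 2.4.6, scipy 1.17.1, pandas 2.3.3 and matplotlib 3.10.9 were used.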

Additional observations from a re-analysis of the deposited data

How the results depend on the processing

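The division of reads by the longest or the union GENCODE length was chosen after seeing the data. The 7 expressed members numbered between 5 and 8 at the other levels and units tried, BGLAP being the eighth at 1 TPM. Of the 6 neighbouring pairs in the order of the RUNX and osteoblast genes, 5 kept their order in CPM (reads over the library total, not divided by length), where CBFB was 0.663 times RUNX1. All 6 kept it in every other setting. The ratio of RUNX1 to RUNX2 was 2.20 in CPM. The level also moved the whole table: 66.7% of all entries reached 1 RPKM and 42.8% reached 5 RPKM. The share was 73.9% at 0.5 RPKM, 81.6% at 1 TPM and 78.1% at 1 CPM. The counts of the lists below are to be read beside these shares. At 5 RPKM the osteoblast factors numbered 10 in place of 18, the SPARC relatives 2 in place of 4, the osteoblast surface genes 7 in place of 12, the osteoclast markers 1 in place of 3, the chondrocyte markers 3 in place of 5 and the haematopoietic markers 0 in place of 1. The muscle and haematopoietic markers, 1 each at 1 RPKM, numbered 2 and 2 at 0.5 RPKM, 3 and 4 at 1 TPM (RPKM rescaled to the same sum in both libraries) and 2 and 3 at 1 CPM, and the osteoclast markers numbered 5 at 1 TPM. Members called different between the libraries numbered 1, CBFB, when only entries at 1 RPKM or more were tested, against 0; fewer tests enter that adjustment. Otherwise the cause was not tested. No paired analysis was possible because there is 1 group. Depth limits BGLAP, with 3 and 4 reads.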
